A study of Mus musculus with 9 samples.

Results

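Lipofibroblasts are fibroblasts of the lung interstitium that take up fatty acids, keep them as triglyceride droplets and hand lipid to the neighbouring type 2 epithelial cells, which use it for surfactant. The 10 genes described here serve that lipid handling or mark those cells in mouse lung: the transcription factor genes Pparg and Cebpa, the uptake genes Lpl, Cd36 and Slc27a6, the carrier genes Fabp4 and Fabp5, the droplet coat genes Plin1 and Plin2, and the fibroblast marker Inmt. They were found by gene symbol in the array annotation, which gave 20 of the 62976 array features, and all 10 were among the 24291 genes measured. No filter on low values was applied to them.

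As background, PPAR-gamma and C/EBP-alpha together switch on fat storage genes in adipocytes, among them several of the genes named above, and PPAR-gamma has the same role in lung lipofibroblasts of rodents. Uptake begins with lipoprotein lipase, which frees fatty acids from circulating triglyceride, continues through membrane proteins such as CD36 and ends with soluble carriers and droplet coat proteins inside the cell. Most of these genes are not private to lipofibroblasts: capillary endothelium uses Cd36, Fabp4 and Fabp5, macrophages use Pparg, Lpl and Plin2, and type 2 epithelium uses Cebpa and Fabp5.

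RNA came from sorted mesenchymal cells of fetal mouse lung. In all 3 groups the mothers had received tamoxifen, 0.1 mg per g body weight, at E15.5 (embryonic day), and at E18.5 the lungs were taken, stained for ACTA2 and PDGFRA and sorted for RFP-positive cells. SMC is the ACTA2-high, PDGFRA-low population, described as airway and vascular smooth muscle. MYF is the PDGFRA-high, ACTA2-low population, described as progenitors of alveolar myofibroblasts, and INM is low for both and described as undifferentiated progenitors. Lipofibroblasts are in the name of none of the groups, so the comparison asks which population carried their lipid genes. Each group had 3 arrays from 3 mice; the driver of the RFP label and the mouse strain are not given in the sources used here. These are bulk samples, so fewer cells of a type and less RNA per cell cannot be told apart.

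Values are log2 signals, where 1 unit is a doubling, and the median gene had a level of 6.00. Signals of different features are not on a common scale, so the median gene serves for orientation only. SMC replicate 1 stood apart: across features it correlated at 0.425 to 0.451 with the other arrays, which correlated at 0.864 to 0.970 among themselves. Group means and tests below use the other 8 arrays (2 SMC, 3 MYF and 3 INM), and each difference of the 10 genes is also given with all 9, by the feature that stands for the gene. In the genes of the sort, Pdgfra averaged 13.5 in MYF, 8.47 in INM and 6.91 in SMC, and Acta2 15.34 in SMC, 13.97 in MYF and 13.57 in INM. A gene was called when the Benjamini-Hochberg adjusted p of limma's test, taken over all genes, was under 0.05.

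The promoters of Pparg, Plin2 and Cd36, members that were lower in MYF than in INM, are shown because the known regulators of the pathway read short DNA words. Each sequence shown holds a match, and members lower in MYF whose promoter held none are not shown. PPAR-gamma with its partner RXR is known to bind pairs of AGGTCA with 1 base between them, and C/EBP factors bind words of the form TTGCNNAA. Each line gives the 250 bases before a RefSeq start (GRCm38.p6), 5′ to 3′ on the gene's strand, with matches to AGGTCA or TTGCNNAA on either strand in capitals.
Pparg, the most downstream of its 3 listed starts, chr6:115421816-115422065, plus strand: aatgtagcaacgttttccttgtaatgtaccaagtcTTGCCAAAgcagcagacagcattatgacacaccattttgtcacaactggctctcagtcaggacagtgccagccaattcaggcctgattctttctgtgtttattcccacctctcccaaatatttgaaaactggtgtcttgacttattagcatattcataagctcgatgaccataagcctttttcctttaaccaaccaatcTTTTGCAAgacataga
Plin2, chr4:86670060-86670309, minus strand: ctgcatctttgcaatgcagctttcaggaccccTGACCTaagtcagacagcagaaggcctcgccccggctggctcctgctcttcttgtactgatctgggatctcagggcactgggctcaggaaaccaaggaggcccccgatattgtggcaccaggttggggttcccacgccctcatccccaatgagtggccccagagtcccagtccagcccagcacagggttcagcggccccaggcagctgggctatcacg
Cd36, chr5:17835897-17836146, minus strand: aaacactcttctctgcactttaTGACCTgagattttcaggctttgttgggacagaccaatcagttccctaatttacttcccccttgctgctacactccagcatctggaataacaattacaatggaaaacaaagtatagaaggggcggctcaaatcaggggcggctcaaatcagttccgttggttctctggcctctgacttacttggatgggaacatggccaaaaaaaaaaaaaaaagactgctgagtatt
Of the 10 members, 6 matched the promoter table, with 8 starts. The Pparg start shown held 2 matches to TTGCNNAA and 0 to AGGTCA, and Plin2 and Cd36 held 1 AGGTCA each, read on the opposite strand. The other Pparg starts held 1 AGGTCA each and 0 TTGCNNAA, Plin1 held 2 TTGCNNAA, and Cebpa and Inmt, also lower in MYF than in INM, held neither. In all, 4 of 8 starts held AGGTCA and 2 of 8 held TTGCNNAA, where each Pparg start counts on its own. Over 32851 promoters of the same length, 14.02% held AGGTCA, 9.56% held TTGCNNAA and 0.0335% held the full AGGTCANAGGTCA pair, which none of the 8 member promoters held. The motifs do not overlap in these sequences, and a match is a description of the letters, not a binding site.

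**Figure D1:**
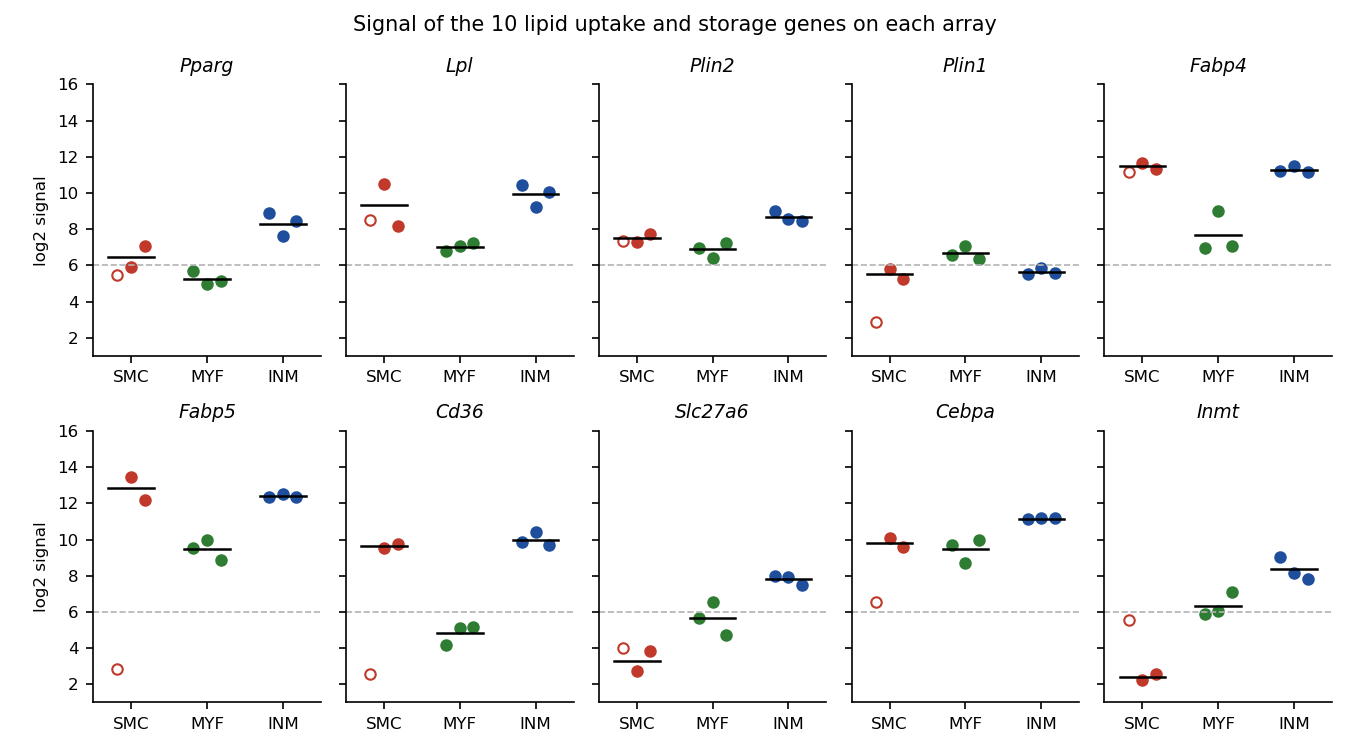
Log2 signal (y axis) of each of the 10 genes on each array, by group, with the mean of the 8 arrays as a black bar; the open circle is SMC replicate 1 and the dashed line the median gene (6.00). Among the filled points Cd36, Fabp4 and Fabp5 are low in MYF alone, whereas Inmt and Slc27a6 step down from INM to MYF to SMC.

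Compared with INM, the MYF population had less RNA of 9 of the 10 genes, with differences from 3.23-fold for Cebpa to 36.1-fold for Cd36. Of all genes 10.7% were called in this comparison, and 6.38% were lower in MYF. With all 9 arrays the count was 1 of 10, Fabp4, where 1.1% of all genes were called and 0.927% were lower in MYF. The differences between MYF and INM are the same in both fits, since SMC replicate 1 enters only through the shared estimate of spread. The median difference of the 10 genes was -2.51, against 0.05 for all genes tested. In 9 of the 10 genes every MYF array lay below every INM array, a pattern found in 16.5% of all genes.

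Pparg, which encodes PPAR-gamma, had signals of 8.91, 7.60 and 8.44 on the INM arrays and 5.67, 5.00 and 5.12 on the MYF arrays. On SMC replicates 2 and 3 it reached 5.90 and 7.07, and on SMC replicate 1 5.49. INM was thus the high group, no INM array overlapped another group, and MYF and SMC replicate 2 lay below the median gene. MYF was lower than INM by a difference of -3.05 ± 0.45 (log2 ± SE, n = 3 and 3), which passed limma's test (adjusted p = 0.00532, and 0.0515 with 9 arrays). SMC lay between the other groups, and neither of its differences passed: -1.83 ± 0.51 from INM (adjusted p = 0.214) and 1.22 ± 0.51 from MYF (adjusted p = 0.172; n = 2 and 3). With 9 arrays these were -2.16 and 0.89 (adjusted p = 0.532 and 0.459, limma).

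Cebpa encodes C/EBP-alpha. It had 11.12, 11.17 and 11.20 in INM, 9.71, 8.71 and 10.002 in MYF, and 10.07 and 9.58 on SMC replicates 2 and 3, with 6.55 in SMC replicate 1. The INM arrays were again above all others, with smaller differences of the group means than for Pparg, while MYF and SMC overlapped. The difference of MYF from INM was -1.69 ± 0.37 (limma adjusted p = 0.0273, and 0.679 with 9 arrays). It lost the call without MYF replicate 1 or any 1 of the INM arrays (adjusted p = 0.0719 to 0.0879). For SMC against INM it was -1.34 ± 0.42, which did not pass (adjusted p = 0.262), and -2.43 with 9 arrays (0.554). For SMC against MYF the difference was 0.36, with a 95% interval from -0.61 to 1.32, and it was -0.74 with 9 arrays (adjusted p = 0.634 and 0.656, limma).

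Lpl, the lipase that feeds the pathway, gave 10.47, 9.25 and 10.07 in INM and 6.79, 7.10 and 7.23 in MYF. SMC replicates 2 and 3 differed from each other, at 10.51 and 8.18, and SMC replicate 1 had 8.51. MYF was the low group, and the SMC arrays spanned the range of INM. The MYF difference from INM was -2.89 ± 0.59 (limma adjusted p = 0.0209, and 0.0993 with 9 arrays). The call was lost without any 1 of the MYF arrays, without INM replicate 1 and without INM replicate 3 (adjusted p = 0.0546 to 0.0841). SMC was 2.30 ± 0.66 above MYF without passing (adjusted p = 0.0737), and 2.02 above it with 9 arrays (0.240). It passed in 4 of 19 alternatives (lowest adjusted p = 0.0127, without SMC replicate 3), over which the difference ran from 1.13 to 3.47. The difference of SMC from INM was -0.58, with a 95% interval from -2.11 to 0.95, and -0.86 with 9 arrays (limma adjusted p = 0.757 and 0.561). SMC replicate 2, the array with the higher Lpl signal, also had the higher mean of 18 cardiac muscle markers, 12.27 against 10.18 on SMC replicate 3; heart muscle is known for high Lpl, and the part of those cells in the result was not tested.

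Cd36, a membrane receptor and transporter of fatty acids, had the largest difference of the 10 genes between MYF and INM. Its signals were 9.84, 10.44 and 9.72 in INM and 9.56 and 9.74 on SMC replicates 2 and 3, against 4.20, 5.10 and 5.17 in MYF. INM and SMC overlapped, and every MYF array was below the median gene. MYF was lower than INM by -5.17 ± 0.36 (limma adjusted p = 0.000351), and SMC was higher than MYF by 4.83 ± 0.40, a 28.4-fold difference (adjusted p = 0.00146). SMC replicate 1 had 2.58, so with 9 arrays the adjusted p were 0.249 and 0.466, and the difference of SMC from MYF was 2.47.

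Slc27a6, a fatty acid transporter of the acyl-CoA synthetase kind, had a different order. It had 7.96, 7.94 and 7.49 in INM, 5.69, 6.55 and 4.74 in MYF and 2.72 and 3.83 on SMC replicates 2 and 3; SMC replicate 1, at 4.02, was also low. The groups formed 3 steps with no overlap. The signal of SMC replicate 2 lay near the lowest values on the arrays, and detection calls were not used here. Differences from SMC are therefore measured values with no fold. SMC was lower than INM by -4.52 ± 0.56 (adjusted p = 0.0345), MYF was lower than INM by -2.14 ± 0.50 (adjusted p = 0.0339), and SMC was lower than MYF by -2.38 ± 0.56 (adjusted p = 0.0402), all by limma. With 9 arrays the differences were -4.27, -2.14 and -2.14 and none passed (adjusted p = 0.153, 0.173 and 0.167). These calls were also lost without 1 array. The call of SMC against INM was lost without MYF replicate 1 or 3 or any 1 INM array (adjusted p = 0.055 to 0.127) and when the compared groups were fitted alone (0.144). That of MYF against INM was lost without MYF replicate 1 or 3 or any 1 INM array (0.078 to 0.11). That of SMC against MYF was lost without SMC replicate 2, MYF replicate 1 or 2 or any 1 INM array (0.0667 to 0.114) and with the compared groups alone (0.121).

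Fabp4 and Fabp5 encode soluble carriers that bring fatty acids to enzymes and to the nucleus. Fabp4 had 11.22, 11.49 and 11.18 in INM, 11.67 and 11.31 on SMC replicates 2 and 3 and 11.19 on SMC replicate 1. In MYF it had 6.94, 9.03 and 7.10. The MYF arrays were lowest, with MYF replicate 2 above the other MYF arrays, and SMC and INM overlapped. MYF was lower than INM by -3.60 ± 0.54 (adjusted p = 0.00544) and SMC higher than MYF by 3.80 ± 0.60 (adjusted p = 0.0101), both by limma. These 2 differences also passed with 9 arrays, at -3.60 ± 0.61 and 3.70 ± 0.61 (adjusted p = 0.0349 and 0.0390), and the second missed when SMC and MYF were fitted alone (adjusted p = 0.0531). The 9-array result is that of the brighter Fabp4 feature, and the dimmer one had 4.56 on SMC replicate 1.

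Fabp5 had 12.36, 12.50 and 12.36 in INM, 13.47 and 12.21 on SMC replicates 2 and 3 and 9.53, 9.999 and 8.89 in MYF. Its order was that of Fabp4 and Cd36, with MYF low and the other groups overlapping. MYF was lower than INM by -2.94 ± 0.41 (limma adjusted p = 0.00438) and SMC higher than MYF by 3.37 ± 0.46 (adjusted p = 0.00627). On SMC replicate 1 it had 2.87, the lowest of the 9 arrays, and with that array neither difference passed (adjusted p = 0.974 and 0.993) and the difference of SMC from MYF was 0.05 ± 2.30. Fabp9 and Pmp2, carrier genes that lie between Fabp4 and Fabp5 in RefSeq gene order and were chosen after their values were seen, did not pass in any of the 3 comparisons and averaged 3.32 and 3.21 in MYF and 3.19 and 3.65 in INM. On SMC replicate 3 Fabp9 had 6.57, above the other arrays.

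For Cd36, Fabp4 and Fabp5, SMC and INM were not told apart. The differences of SMC from INM were -0.35 (95% interval -1.27 to 0.57), 0.19 (-1.19 to 1.58) and 0.43 (-0.64 to 1.50; limma adjusted p = 0.761, 0.925 and 0.745). Differences of more than 1 log2 unit thus remain possible for each gene. With 9 arrays they were -2.71, 0.09 and -2.89 (adjusted p = 0.554, 0.941 and 0.563).

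Plin2 coats lipid droplets in most cell types and is the usual droplet marker of lipofibroblasts. It had 9.03, 8.55 and 8.48 in INM, 6.97, 6.41 and 7.26 in MYF, 7.32 and 7.75 on SMC replicates 2 and 3, and 7.35 on SMC replicate 1. INM was highest without overlap, and SMC replicate 1 was close to its group here. MYF was lower than INM by -1.80 ± 0.33 (limma adjusted p = 0.0126, 0.118 with 9 arrays, and 0.0563 without INM replicate 1). SMC differed from INM by -1.15 ± 0.36 and from MYF by 0.65 ± 0.36, and neither passed (adjusted p = 0.267 and 0.299). With 9 arrays these were -1.21 and 0.59 (limma adjusted p = 0.554 and 0.504).

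Plin1, the droplet coat protein of adipocytes, was the exception. Its brightest feature had 6.55, 7.09 and 6.38 in MYF, 5.52, 5.85 and 5.59 in INM and 5.82 and 5.24 on SMC replicates 2 and 3, with 2.86 on SMC replicate 1. MYF was the highest group, near the median gene. The difference of MYF from INM, 1.02 ± 0.31, did not pass (limma adjusted p = 0.0767, and 0.931 with 9 arrays), nor did that of SMC from MYF, -1.14 ± 0.34 (adjusted p = 0.0825, and 0.274 with 9 arrays, where it was -2.03). Of 19 alternatives the first passed in 3 and the second in 4 (lowest adjusted p = 0.0321 and 0.0398). SMC differed from INM by -0.12, with a 95% interval from -0.91 to 0.67, and by -1.01 with 9 arrays (limma adjusted p = 0.918 and 0.556). That feature is annotated by a cDNA record outside RefSeq mRNA; the feature annotated by the RefSeq mRNA averaged below the median gene in all groups, at 3.80 ± 0.36 (SD, n = 3) for MYF, 4.15 ± 0.43 (n = 3) for INM and 4.06 ± 1.95 (n = 2) for SMC.

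Inmt encodes indolethylamine N-methyltransferase, an enzyme abundant in lung fibroblasts; it is a marker rather than a lipid gene. It had 9.02, 8.17 and 7.85 in INM, 5.89, 6.07 and 7.10 in MYF, and 2.21 and 2.55 on SMC replicates 2 and 3. Like Slc27a6 it formed 3 steps with no overlap among the 8 arrays. On SMC replicate 1 it had 5.53, just under the lowest MYF array. The SMC signals lay near the lowest values on the arrays, and detection calls were not used here, so differences from SMC are measured values with no fold. SMC was lower than INM by -5.97 ± 0.49 (limma adjusted p = 0.00939), MYF lower than INM by -1.99 ± 0.43 (adjusted p = 0.0259) and SMC lower than MYF by -3.97 ± 0.49 (adjusted p = 0.00426). With 9 arrays the differences from INM were -4.92 for SMC and -1.99 for MYF, and SMC was at -2.92 from MYF; none passed (adjusted p = 0.212, 0.520 and 0.193). The call of MYF against INM was lost without MYF replicate 1 or 2 or INM replicate 1 or 2 (limma adjusted p = 0.0718 to 0.102), and that of SMC against INM with those groups fitted alone (0.141).

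**Figure D2:**
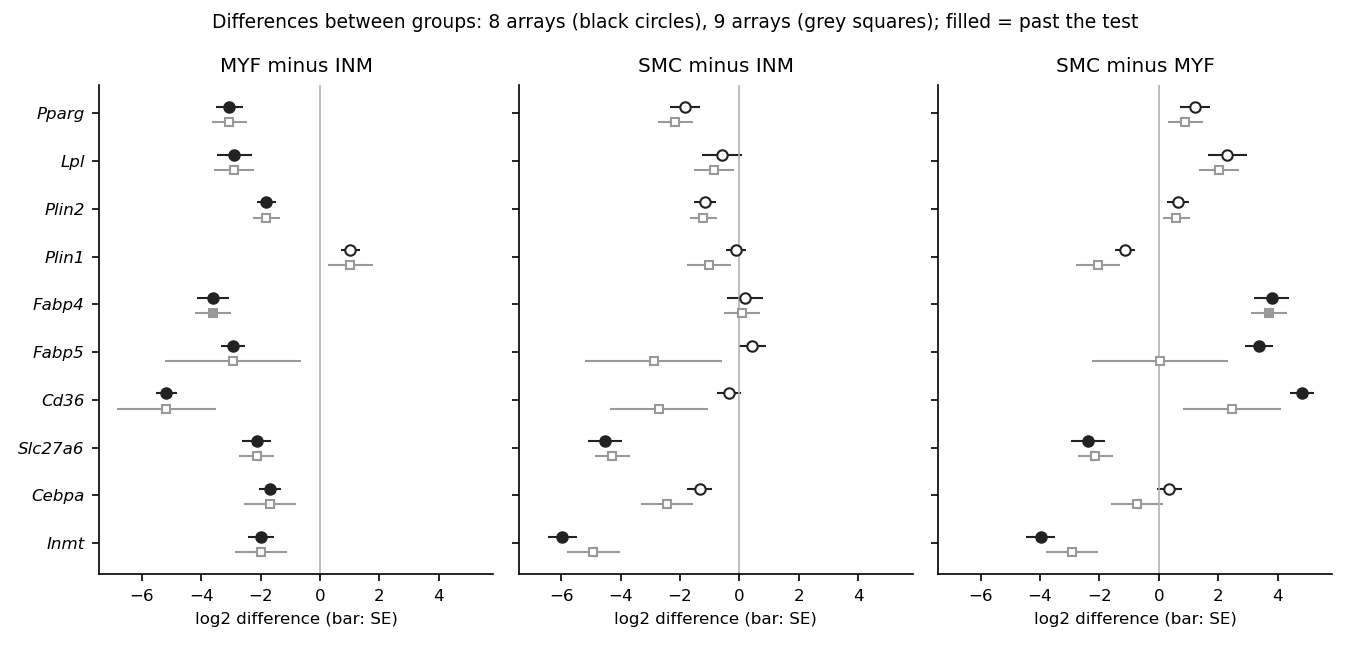
Log2 differences (x axis, bars are SE) between groups for the 10 genes in the 3 comparisons, with 8 arrays (black circles) and with all 9 (grey squares); filled symbols passed limma's test. In MYF minus INM 9 black circles are filled, on the negative side, and adding SMC replicate 1 widens the bars most for Fabp5 and Cd36.

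Across the 3 comparisons the genes followed different orders. SMC against MYF gave 5 calls of 10: Fabp4, Fabp5 and Cd36 were higher in SMC, and Slc27a6 and Inmt lower. Of all genes 8.2% were called there, 4.66% higher and 3.54% lower in SMC. SMC against INM gave 2 calls, Slc27a6 and Inmt, both lower in SMC, where 0.247% of all genes were called and 0.157% were lower. With 9 arrays the counts were 1 of 10 for SMC against MYF (Fabp4, with 0.672% of all genes called and 0.379% higher) and 0 of 10 for SMC against INM. In the latter, limma called 0 of 24271 genes, while 5 members and 1935 genes had an unadjusted p under 0.05. The 3 comparisons share arrays, so their calls are not independent of each other. Centring each array on its median gene turned the split of calls over all genes from 1056 higher and 1547 lower in MYF than in INM to 2149 and 1327, and from 1131 higher and 859 lower in SMC than in MYF to 986 and 1494; no member changed direction.

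Several genes had more than 1 array feature, and these did not always give the same picture. Lpl had 6. In the 3 annotated by its RefSeq mRNA, MYF was lower than INM by -2.89 ± 0.60, -2.56 ± 0.74 and -1.79 ± 0.72, of which the first passed when every feature was fitted on its own (limma adjusted p = 0.0245, 0.0740 and 0.183). A further Lpl feature from another cDNA record ran the other way, with a mean of 8.18 ± 0.37 for MYF and 7.45 ± 0.15 for INM (SD, 3 arrays each; difference 0.73 ± 0.30, adjusted p = 0.185). The remaining ones averaged 3.70 and 3.80 in MYF, below the median gene.

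Both Fabp4 features fell in MYF, by -3.60 ± 0.54 and -3.45 ± 0.41 against INM (limma adjusted p = 0.00646 and 0.00248), and SMC replicates 2 and 3 were above MYF in both. On SMC replicate 1 the features disagreed. The brighter had 11.19, and the dimmer had 4.56, within the MYF range of 3.51 to 4.76. The dimmer of the Plin2 features had 6.54 ± 0.034 (SD, n = 3) for INM, 5.81 ± 0.33 (n = 3) for MYF and 5.74 ± 0.63 (n = 2) for SMC, and its difference of MYF from INM, -0.73 ± 0.34, did not pass (adjusted p = 0.241). The second Pparg feature averaged 2.13 to 2.75 in the 3 groups, close to the lowest values on the arrays. With the mean of all features of a gene, the difference of MYF from INM was -1.40 for Pparg and -1.39 for Lpl, which still passed (limma adjusted p = 0.0340 and 0.0464), and 0.19 for Plin1; that of SMC from MYF was 0.30 for Pparg.

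**Figure D3:**
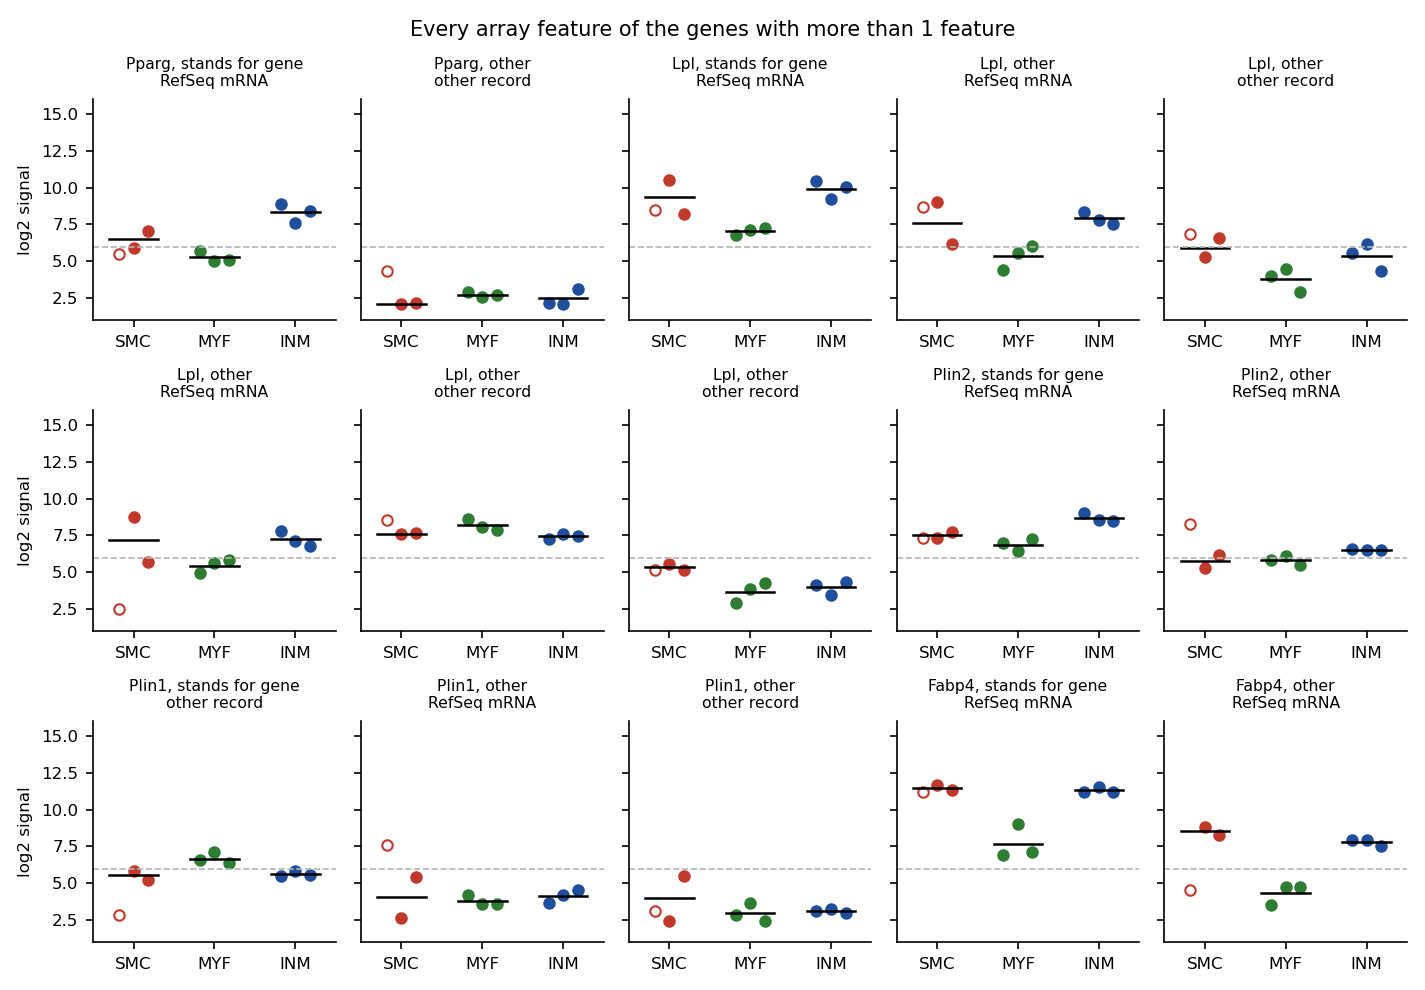
Log2 signal (y axis) on each array of all 15 features of Pparg, Lpl, Plin2, Plin1 and Fabp4, by group, with the mean of the 8 arrays as a bar, SMC replicate 1 as an open circle and the median gene as a dashed line. Among the filled points the Fabp4 features share a pattern, whereas 1 Lpl feature is higher in MYF than in INM.

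Markers of other cell types moved with several of these genes. Of 21 endothelial markers 15 were lower and 1, Ednrb, higher in MYF than in INM, and the list's mean signal was 5.96 to 6.41 on the MYF arrays, 8.47 to 8.70 on SMC replicates 2 and 3 and 8.95 to 9.08 on the INM arrays. In SMC against MYF 14 were higher and 2 lower (2 and 0 with 9 arrays), and in SMC against INM limma called 0 of 21 (2 at an unadjusted p under 0.05). Cd36, Fabp4 and Fabp5 were likewise low in MYF and high in the others. The SMC and INM arrays of these genes overlapped, and the mean of the endothelial list was higher on the INM arrays than on SMC replicates 2 and 3. The defining endothelial genes Cdh5, Kdr and Pecam1 averaged 6.51, 5.02 and 4.92 in MYF, and 11.65, 10.26 and 9.41 in INM. Gpihbp1, which anchors lipoprotein lipase on capillary endothelium, was lower in MYF than in INM by -3.35 ± 0.52 (limma adjusted p = 0.00633, and 0.0405 with 9 arrays). What part endothelial RNA had in these differences was not tested.

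Markers of other cell types were also lower in MYF. Of 25 epithelial markers 23 were lower in MYF than in INM, with a mean of 6.27 to 6.57 in MYF, 9.64 to 10.72 in SMC replicates 2 and 3 and 11.16 to 11.54 in INM. INM was highest in that list, as it was for Pparg, Cebpa and Plin2, and also in the endothelial and mesothelial lists. In SMC against INM limma called 0 of the 25 epithelial markers, with 10 at an unadjusted p under 0.05. Of 21 macrophage and leukocyte markers 11 were lower and 1, Csf1r, higher in MYF than in INM. The list had means of 5.28 to 5.55 in MYF, 7.37 to 8.81 in SMC and 7.56 to 8.07 in INM. Its genes did not move together. Tyrobp and Marco averaged 5.56 and 5.43 in MYF and 11.16 and 11.00 in INM. Csf1r, Ptprc and C1qa averaged 12.95, 7.78 and 4.11 in MYF and 11.90, 6.93 and 4.15 in INM. Of 12 mesothelial markers 6 were lower in MYF than in INM (median -3.02). The keratin genes Krt8, Krt18 and Krt19 are on both this list and the epithelial list, so these counts are not separate. Of 18 cardiac muscle markers 7 were lower (median -1.98), with means of 5.67 to 6.22 in MYF and 8.06 to 8.42 in INM. The part of these cells in the results for Pparg, Cebpa, Lpl, Plin2 and Fabp5 was not tested. With 9 arrays the counts lower in MYF than in INM were 4 for endothelial, 9 for epithelial, 2 for leukocyte, 2 for mesothelial and 0 for cardiac markers, with 5 cardiac markers at an unadjusted p under 0.05.

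The mean signals of adipocyte markers overlapped between MYF and INM. The 11 measured had means of 4.99 to 5.72 in INM, 5.17 to 5.18 in MYF and 5.90 to 6.10 in SMC, and Acsl1, which many tissues express, was the single one called in any comparison. Adipoq and Cidec, which define fat cells, averaged 3.55 and 4.18 in INM, 3.41 and 2.89 in MYF and 4.53 and 3.90 in SMC, below the median gene, while Lipe, the hormone-sensitive lipase, averaged 5.49, 6.08 and 7.21 in INM, MYF and SMC. On the 8 arrays 4 to 8 of the 11 markers lay below the median gene. Over the SMC, MYF and INM groups, neither Inmt nor Slc27a6 followed the endothelial or epithelial order. SMC had the lowest signals of both genes, whereas those marker lists were high there. Between MYF and INM, both genes and the means of both lists were lower in MYF. What part endothelial or epithelial RNA had in the Inmt and Slc27a6 differences was not tested.

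**Figure D4:**
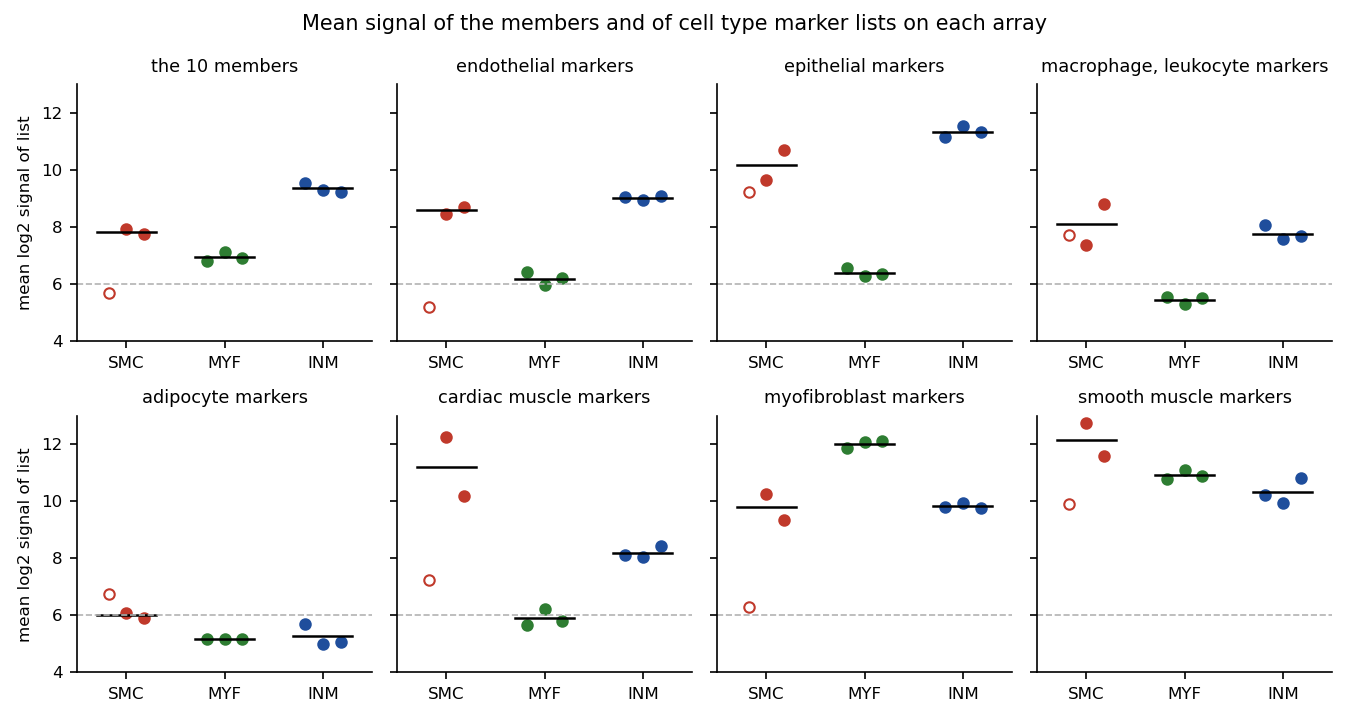
Mean log2 signal (y axis) of the 10 genes and of 7 cell type marker lists on each array, by group, with the mean of the 8 arrays as a bar, SMC replicate 1 as an open circle and the median gene as a dashed line. Among the filled points the endothelial, epithelial and leukocyte lists are lowest in MYF, and the adipocyte list lies near or below the dashed line on every array but SMC replicate 1.

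Wider lists of lipid genes held both called and uncalled members. Among 16 other fatty acid transporters, carriers and acyl-CoA synthetases, 5 were lower and 0 higher in MYF than in INM (median -0.55, against 0.05 for all genes). The brain-type carrier gene Fabp7 was lower by -4.36 ± 0.75 (limma adjusted p = 0.0104) and the transporter gene Slc27a2 by -3.83 ± 0.82 (adjusted p = 0.0250). Acsl1, Acsl4 and Acsl5, which activate fatty acids, made up the rest. In SMC against MYF 4 of the 16 were higher (0 with 9 arrays, 2 at an unadjusted p under 0.05 by limma), led by the heart and muscle carrier gene Fabp3, which had 13.76 and 11.32 on SMC replicates 2 and 3 and 6.90 to 7.72 in MYF (5.23 ± 0.65, limma adjusted p = 0.00439, and 0.317 with 9 arrays). The 18 cardiac muscle markers had means of 10.18 to 12.27 in SMC and 5.67 to 6.22 in MYF, and their part in the Fabp3 difference was not tested.

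Triglyceride synthesis genes were divided. Of 17, 3 were lower and 1 higher in MYF than in INM (median -0.63): the desaturase gene Scd1 was lower by -4.43 ± 0.41 (limma adjusted p = 0.000822, and 0.483 with 9 arrays), Fasn and Lpin2 were lower, and the phosphatidate phosphatase gene Lpin1 was higher by 2.06 ± 0.37 (adjusted p = 0.0125). Of 12 other droplet coat and structure genes only Cav1, a gene of endothelial and fibroblast caveolae, was called (-2.45 ± 0.38, adjusted p = 0.00639). Of 7 triglyceride breakdown genes limma called 0 in each comparison, with 2 at an unadjusted p under 0.05 in MYF against INM and 1 in each of the others.

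Of 11 measured lipase partners and lipoprotein receptors, 3 were lower (Gpihbp1, Scarb1 and Apoc2) and 1, Lrp1, higher in MYF than in INM (median 0.04). Other factors of fat cell formation did not follow Pparg: of 23, Klf5 was lower in MYF than in INM by -3.35 ± 0.61 (adjusted p = 0.0133) and Cebpd, which acts early in adipocyte formation, was higher by 1.34 ± 0.28 (adjusted p = 0.0226), with a median of 0.10. Pth1r encodes the receptor of PTHrP, the epithelial signal known to promote lipofibroblasts in rodents. It was higher in MYF, at 11.30, 10.71 and 11.42, than in INM, at 8.95, 7.25 and 8.11 (3.04 ± 0.60, limma adjusted p = 0.0178, and 0.180 with 9 arrays). In that comparison it was the single gene called among 10 of the PTHrP and adipocyte-secreted list. In SMC against MYF, Pth1r and Lepr were lower in SMC, by -3.60 ± 0.67 and -2.74 ± 0.63 (limma adjusted p = 0.0188 and 0.0377). With 9 arrays 0 of the list passed there. With 9 arrays, of all these wider lists only Gpihbp1 passed in MYF against INM.

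Genes of matrix fibroblasts, the cells that Inmt marks, took several orders. Of 16, 3 were lower in MYF than in INM (Ces1d, Npnt and Limch1; median -1.08), and 3 were lower in SMC than in INM (median -1.77). Those 3 were Fgf10, a growth factor of the distal lung mesenchyme, at -5.62 ± 0.60, the amino acid transporter gene Slc38a5 at -5.11 ± 0.74 and the alcohol dehydrogenase gene Adh1 at -4.34 ± 0.34 (limma adjusted p = 0.0203, 0.0477 and 0.00939). With 9 arrays limma called 0 of the 16 in SMC against INM, and 9 had an unadjusted p under 0.05. In SMC against MYF 5 were lower (Adh1, Fgf10, Slc38a5, Col13a1 and Mfap4) and 2 higher (1 and 0 with 9 arrays). The 2 were Ces1d, at 3.59 ± 0.80, and Npnt, at 1.26 ± 0.30 (limma adjusted p = 0.0344 and 0.0419), which were lowest in MYF, where Inmt was lowest in SMC.

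**Figure D5:**
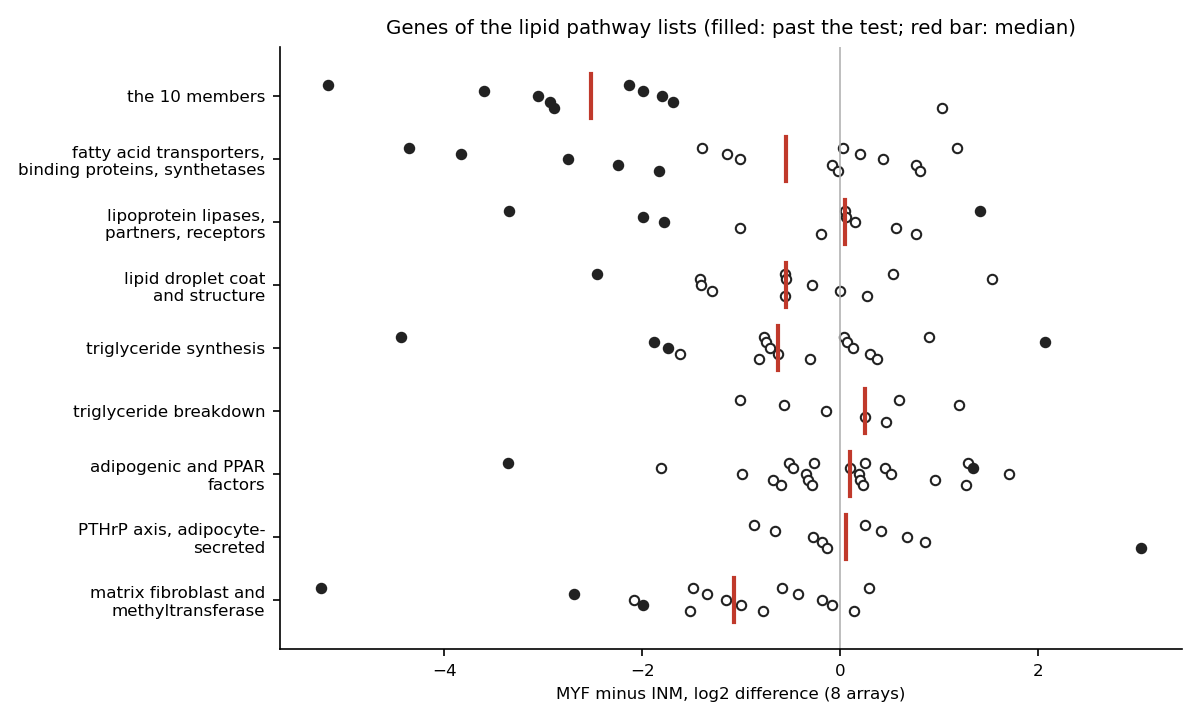
Log2 difference of MYF minus INM (x axis, 8 arrays) for each measured gene of the 10 and of 8 wider lists; filled circles passed limma's test and red bars are medians. The median of the 10 genes is -2.51, and those of the wider lists lie between -1.08 and 0.25.

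Genes with the most similar profile over the 8 arrays were looked up among 12610 others whose highest group mean reached the median gene. Slc27a6 was most like Ablim3 (Pearson r = 0.979), Mfap4 (0.963), a microfibril protein gene, and Tcf21 (0.962), a transcription factor of lung fibroblasts. Inmt was most like Ywhab (0.990), Rap2a (0.963) and Ablim3 (0.962). Cd36 was most like Susd2 (0.997), Flt4 (0.997), a receptor of lymphatic and capillary endothelium, and Plcg2 (0.994), and Fabp5 was most like Fuca2, Myzap and Perp (0.994, 0.993 and 0.991). The nearest to Pparg were Tgtp2 (0.993), Nlrp3 (0.982), an inflammasome gene of myeloid cells, and Rpl17-ps8 (0.981). Plin1 was nearest to Tnc (0.988), a matrix protein gene, Trerf1 (0.985) and P4ha3 (0.979). These correlations are over 8 arrays in 3 groups and describe the profiles without a test.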

How the data were processed

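The deposited values are log2 signals per feature of 9 one-colour (Cy3) arrays hybridized with amplified RNA. The authors used limma, per the submitters' processing notes, with no version given; the background correction and the rule behind the 1197 empty cells, in 733 features, are not given in the sources used here. The 9 deposited columns have near-equal quantiles and run from 1.65 to 15.999 on the log2 scale, so they were read as quantile-normalized, and signals near the upper end are compressed. Of the features, 43941 carry 1 gene symbol and 19035 none; 1388 symbols were updated by accession and 463 by synonym through RefSeq, and 7 that are not current were kept. The feature with the highest mean over the 9 arrays stands for a gene.

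The fits used limma 3.58.1 (functions lmFit and eBayes) in R 4.3.3, with the package data.table in version 1.17.8, with 1 mean per group, no covariate and two-sided tests, adjusted over all genes by Benjamini-Hochberg. SMC replicate 1 was left out of the main fit and put back in a fit of all 9 arrays. The fit was also run on simulated data with independent noise for the arrays of the main fit. That run covers neither SMC replicate 1 nor mixtures of cells. Members, lists, tests and the choice to leave out that array were made with earlier results of these data known. From each wider list and comparison, up to 2 called genes in each direction were to be named, or the 2 with the largest differences where none was called, and the text gives a part of these together with the remaining called genes of some lists, named after their values were seen. Genes with a like profile were the 3 with the highest Pearson correlation. The number of arrays limits the precision. The labels do not say that replicates of different groups share an animal or day, so replicate numbers were not used as pairs. Deviations of same-numbered arrays from their group means correlated at -0.0515 to 0.0215. Arrays with different numbers were not compared, so these values cannot show whether groups shared animals under another numbering. Scanner files were not used here, so other background corrections and the slide as a block could not be tried.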

Additional observations from a re-analysis of the deposited data

How the results depend on the processing

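The counts of called members and of all called genes depended on SMC replicate 1. With all 9 arrays they were 1 and 267 in MYF against INM, 0 and 0 in SMC against INM, and 1 and 163 in SMC against MYF. Array weights gave SMC replicate 1 a weight of 0.0320, SMC replicate 2 a weight of 0.394 and the remaining arrays 1.12 to 2.64. With these weights the counts over all genes were 4726, 605 and 4263. With the replicate number as a block 5 members were called in MYF against INM (1578 of all genes), 0 in SMC against INM (0 of all genes), and 4 in SMC against MYF (769 of all genes). Fitting the compared groups alone left 0 members and 0 genes in SMC against INM, and 3 members and 626 genes in SMC against MYF. Over all genes, SMC against INM gave 111 without genes below the median level, 101 with every feature fitted and 117 with a variance trend. Leaving out each array in turn gave 4 to 9 members in MYF against INM (1139 to 3633 of all genes), 1 to 2 in SMC against INM (5 to 983) and 4 to 6 in SMC against MYF (817 to 4041); a lone SMC array was assumed to vary like the other groups. The lowest member count, 4, was without INM replicate 1, and it was 5 without MYF replicate 1. Centring arrays on their median gene moved the median difference of all genes from 0.05 to 0.33 in MYF against INM and from -0.05 to -0.26 in SMC against MYF, and Plin1 then passed in MYF against INM (1.30, limma adjusted p = 0.0321).

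Of 570 single member differences under the alternatives, 492 kept their direction and side of the threshold, 55 lost the call, 11 gained one and 12 turned sign. No called difference turned sign. With all 9 arrays Fabp5 turned to -2.89 in SMC against INM and Cebpa to -0.74 in SMC against MYF, and with array weights to -0.10 and -0.0137. Fabp4 in SMC against INM was -0.0124 with the replicate block. With the mean of all features, Lpl and Plin1 in SMC against INM were 0.20 and 0.21, and Plin1 in SMC against MYF was 0.0281. With 1 array left out at a time, SMC against INM ranged from -0.20 to 1.06 for Fabp5, from -1.75 to 0.58 for Lpl and from -0.41 to 0.17 for Plin1, the ends being without SMC replicate 2 or 3, and SMC against MYF ranged from -0.0258 to 0.62 for Cebpa, without MYF replicate 2 or 3. Fabp4 in MYF against INM passed in all 19 alternatives (highest adjusted p = 0.0349). The cause of these changes was not tested.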
